A study of Homo sapiens with 2 samples.

Results

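The immediate early response genes are genes that cells switch on within minutes of a stimulus without first making new protein. The 10 members examined here were FOS and FOSB, JUN, JUNB and JUND, ATF3, the zinc finger genes EGR1, EGR2 and EGR3, and the phosphatase gene DUSP1. They were chosen by name, and each was read with its gene body and 50 kb on each side in the hg38 build. These windows held 73 of the 26395 called transcription start positions, of which 39 were forward and 34 reverse, and no call lay in more than 1 window. The calls came from PRO-cap, which maps the 5' ends of RNA that polymerases extend in a nuclear run-on. The cells were wild-type HUDEP-2, a human erythroid progenitor line made by immortalising cord blood cells. This 1 group had 2 biological replicates, and there was no other genotype, treatment or time. Whether the cells were stimulated, and how they were grown, is not given in the sources used here. Since a call named no replicate and carried no read count, the calls show places of initiation without a level or a replicate error.

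In this family, the FOS proteins pair with the JUN proteins through leucine zippers to form AP-1, a transcription factor complex that binds a short palindromic site. ATF3 is a related zipper protein that can pair with JUN proteins and often acts as a repressor, and EGR1 to EGR3 bind GC-rich sites through zinc fingers. DUSP1 removes phosphate from MAP kinases, the enzymes that transmit the inducing signals, and so closes the response. The promoters of these genes are known for sites of serum response factor, which binds the CArG box, and of CREB, which binds the cAMP response element, and for RNA polymerase II that is already engaged before a stimulus. JUND is known as the member with the most constant expression.

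The cell type labels were checked against markers first. Of 10 erythroid markers, 9 had a called start, among them GATA1, KLF1, ALAS2 and HBB, and TAL1, the other one, held 5 calls inside the gene. None of the 3 T cell, 4 monocyte or granulocyte, 2 hepatocyte and 2 fibroblast markers had a called start, and of these only APOA1 held a call inside the gene. Over all protein-coding genes 41.4% had a called start and 43.3% held a call inside the gene.

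Starts were called at 8 of the 10 members (80%, 95% Wilson interval 49 to 94.3, which covers counting error only). A start was a call within 500 bp of an outer end of the gene that pointed into it. FOS, FOSB, JUN, JUNB, JUND, EGR1, EGR2 and DUSP1 had one, and ATF3 and EGR3 had none. The rule reads outer ends only, so that it leaves out a forward call deep inside ATF3, described below. By the same rule 41.4% of 19821 protein-coding genes had a called start. The members had been chosen with results of these data known, so that no test was made of this difference.

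The promoter sequences are shown because the distance from the called base to a TATA box or a response element can be read from them. Each run is 120 bases of RefSeq sequence (GRCh38.p14) on the strand of the gene, from 110 bases before the called base to 9 bases after it. Capitals mark the called base, which is the last capital in each run, and every complete match to one of the 8 motifs searched.
FOS, chr14:75278717-75278836, forward strand: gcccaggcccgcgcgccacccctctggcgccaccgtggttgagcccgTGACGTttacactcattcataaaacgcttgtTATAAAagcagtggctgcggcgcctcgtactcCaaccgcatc
FOSB, chr19:45467885-45468004, forward strand: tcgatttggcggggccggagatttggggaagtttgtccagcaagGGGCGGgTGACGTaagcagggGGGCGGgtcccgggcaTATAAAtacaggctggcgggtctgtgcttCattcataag
JUN, chr1:58784035-58784154, reverse strand: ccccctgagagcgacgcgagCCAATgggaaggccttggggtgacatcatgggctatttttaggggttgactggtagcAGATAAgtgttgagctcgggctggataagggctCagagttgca
JUNB, chr19:12791376-12791495, forward strand: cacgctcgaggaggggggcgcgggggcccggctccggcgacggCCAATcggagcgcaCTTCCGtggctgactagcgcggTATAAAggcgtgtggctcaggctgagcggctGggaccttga
JUND, chr19:18281614-18281733, reverse strand: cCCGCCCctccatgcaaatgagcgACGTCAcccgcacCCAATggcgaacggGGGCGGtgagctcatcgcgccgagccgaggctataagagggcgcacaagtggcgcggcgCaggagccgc
EGR1, chr5:138465370-138465489, forward strand: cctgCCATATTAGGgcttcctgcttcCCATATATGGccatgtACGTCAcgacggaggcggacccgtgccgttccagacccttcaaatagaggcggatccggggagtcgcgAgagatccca
EGR2, chr10:62818841-62818960, reverse strand: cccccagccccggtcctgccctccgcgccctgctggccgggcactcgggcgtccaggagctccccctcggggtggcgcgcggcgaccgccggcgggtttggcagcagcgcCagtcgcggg
DUSP1, chr5:172771186-172771305, reverse strand: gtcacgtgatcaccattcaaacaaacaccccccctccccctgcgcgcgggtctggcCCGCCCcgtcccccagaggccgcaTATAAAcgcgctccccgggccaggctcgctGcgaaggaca

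A TATA box with the exact letters TATAAA lay at the usual distance in 4 of these 8 promoters, namely FOS, FOSB, JUNB and DUSP1. Near variants, such as the letters TATAAG in the printed run of JUND, were not searched. The letters TATAAA began 32 bases upstream of the called base in FOS, 29 in FOSB, 31 in JUNB and 30 in DUSP1. All 4 lay on the strand of the gene. Among 7652 distinct calls in promoter windows of the RefSeq table, 1.5% had TATAAA between 40 and 16 bases upstream, against 50% of the member promoters. JUN, JUND, EGR1 and EGR2 held no TATAAA on either strand of their 300-base windows, which run from 250 bases before to 50 bases after an annotated start. In the window of JUN the GATA motif AGATAA, the letters bound by GATA1 and its relatives, began 33 bases upstream of the called base.

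The core of the cAMP response element, TGACGT, was found in 5 of the 8 windows, those of FOS, FOSB, JUND, EGR1 and DUSP1. It was searched on both strands, as were all motifs. Of 8201 promoter windows with a call on the strand of the gene, 13.6% held it, and of all 34961 windows 7.97%. The match nearest to the start began 63 bases upstream of the called base in FOS, 59 in FOSB, 86 in JUND and 68 in EGR1, the last 2 on the opposite strand. In DUSP1 the nearest, on the opposite strand, began 123 bases upstream. In JUND (199 to 192 bases upstream) and DUSP1 (125 to 118 bases upstream) matches on both strands overlapped and made up the full palindromic element.

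The CArG box, the binding sequence of serum response factor, was matched in the EGR1 window alone among the 8. It lay there at 2 places, 106 to 97 and 84 to 75 bases upstream of the called base. The pattern searched reads the same on both strands, so that every match to it is on both. Of the windows with a call 0.854% held a CArG box and of all windows 1.3%. Serum response elements farther upstream than 250 bases lie outside these windows.

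The other motifs were spread over the family. The GC box GGGCGG, bound by SP1, was in 6 of 8 windows (FOS, FOSB, JUN, JUND, EGR2 and DUSP1) and in 75.8% of windows with a call. The letters CCAAT, bound by NF-Y, were in JUN, JUNB and JUND, 90, 67 and 73 bases upstream, and in 37.9% of windows with a call. The ETS motif CGGAAG was in JUNB on the opposite strand and in 39.6% of windows with a call. AGATAA was in 4.12% of these windows, and the AP-1 site TGACTCA, in 2.39% of them, was in no member window. The member windows had a median GC content of 70.2% (quartiles 64.5 and 74.2), from 62.0% in JUN to 77.3% in EGR2, beside 66.3% (60.7 and 72.3) over 7726 windows with a distinct call. Observed over expected CpG had a median of 0.906 in the members and 0.881 in those windows, and the lowest member value was 0.619, in JUN.

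**Figure D1:**
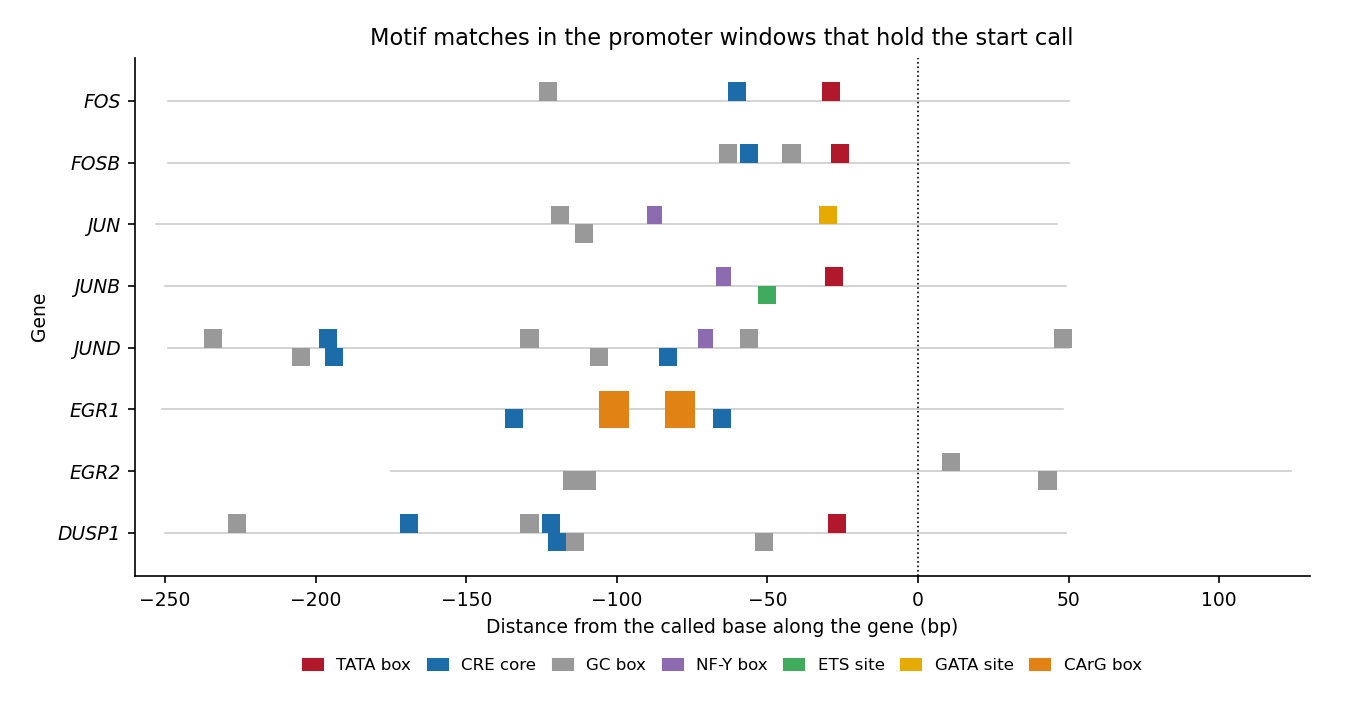
Motif matches in the 8 promoter windows that hold a start call, by distance in bp from the called base (dotted line). Boxes above a line match on the strand of the gene and boxes below it on the opposite strand. Grey lines span the 300-base windows. The TATA boxes of FOS, FOSB, JUNB and DUSP1 begin 29 to 32 bp upstream of the called base.

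The called base lay within 3 bp of the annotated start in 7 of the 8 genes. Whether a called base is the first base of the RNA to the exact base cannot be told from these files, which touches differences of 1 base and the motif distances alike. The call was on the annotated base itself in JUNB (position 12791486 of chromosome 19) and DUSP1 (172771195 of chromosome 5), 1 base outside the gene in FOS (75278827 of chromosome 14), FOSB (45467995 of chromosome 19) and JUND (18281623 of chromosome 19), 1 base inside in EGR1 (138465480 of chromosome 5) and 3 bases inside in JUN (58784044 of chromosome 1). Thus 7 of 8 (87.5%, 52.9 to 97.8) were within 3 bp, beside 36.1% of the 8207 protein-coding genes with a called start, and the same 7 were within 10 bp, beside 45.9%. Each start call was measured to the outer gene end that it pointed in from, without use of the strand of the gene. In these 7 members that was the 5' end, which need not hold for all genes. The median was 0.0 bp in the members and 4.0 bp inside the gene over all protein-coding genes with a start.

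The base at the call moved with the 1-base differences. In FOS, FOSB, JUN, JUND and EGR2 the called base was a cytosine followed by an adenine, while JUNB and DUSP1 were called on a guanine after a thymine and EGR1 on an adenine after a guanine. Over the 7726 distinct calls in promoter windows, 51.6% were on a cytosine, and 91.9% of those with a following base in the window were followed by a purine. Calls on a cytosine lay 1 base before the annotated start in 37.1% of cases and on it in 1.91%. Calls on a purine lay 1 base before it in 0.562% and on it in 22.3%. A purine call was preceded by a thymine in 63.4% and by a cytosine in 3.2% of cases. A pyrimidine followed by a purine, the usual initiator, thus spanned the base before the call and the call in 30.7%, the call and the next base in 47.2%, and either in 77.9% of calls. The positions of FOS, FOSB and JUND, 1 base outside their genes, therefore are those at which cytosine calls lay more often than on the annotated start or 1 base after it, and a difference of 1 base between members is not read as a shift of the start.

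**Figure D2:**
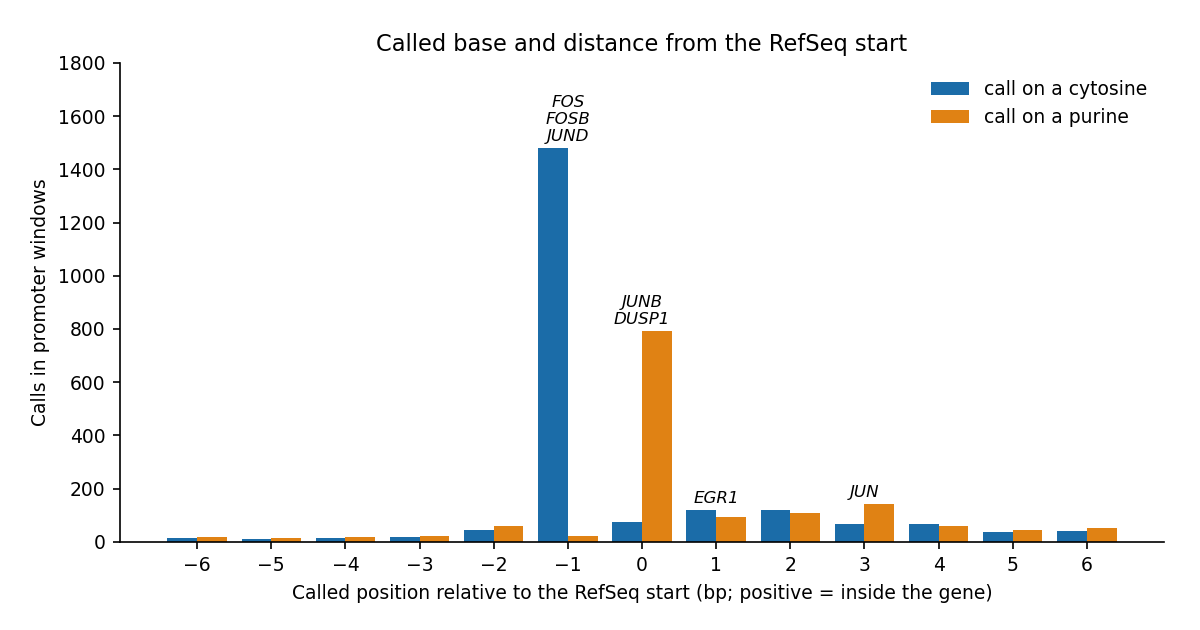
Number of calls in RefSeq promoter windows by distance in bp from the annotated start, for calls on a cytosine (blue) and on a purine (orange), with the members at each distance named. There were 1480 cytosine calls 1 base before the start, where FOS, FOSB and JUND lie, and 793 purine calls on the start, where JUNB and DUSP1 lie.

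EGR2 was the member whose call lay away from its outer end. Its reverse call at position 62818850 of chromosome 10 was 317 bp inside the gene and 75 bp upstream of the second of 3 RefSeq starts in the promoter table, at 62818775. No call lay within 300 bp of the outermost start. With a start window of 200 bp EGR2 had no called start and the count was 7 of 10. A forward call at 62818195, 655 bp farther along the gene, ran against it.

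ATF3 was called inside the gene only. A divergent pair, 2 calls that point away from each other, lay 43.1 to 43.4 kb from its outermost start, with the reverse call at 212608481 and the forward call, in the direction of the gene, at 212608760 of chromosome 1, 279 bp apart. ATF3 is known to be transcribed from a far upstream promoter and from a second one close to its main coding exons. The outermost RefSeq start, at 212565407, and the other start in the promoter table, at 212615018, had no call within 6 kb on the strand of the gene. The nearest were a forward call 6255 bp upstream of the outermost start, at 212559152, and the forward call of the pair, 6258 bp upstream of the other.

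EGR3 had no call at its ends or inside the gene (chromosome 8, 22687659 to 22693480). The window held 2 calls in all, a divergent pair 92 bp apart at the upper end of BIN3, which encodes an adaptor protein, 24.3 and 24.4 kb from the upper end of EGR3. Transcription of EGR3 below the calling threshold, whose value is unknown, would leave no call.

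**Figure D3:**
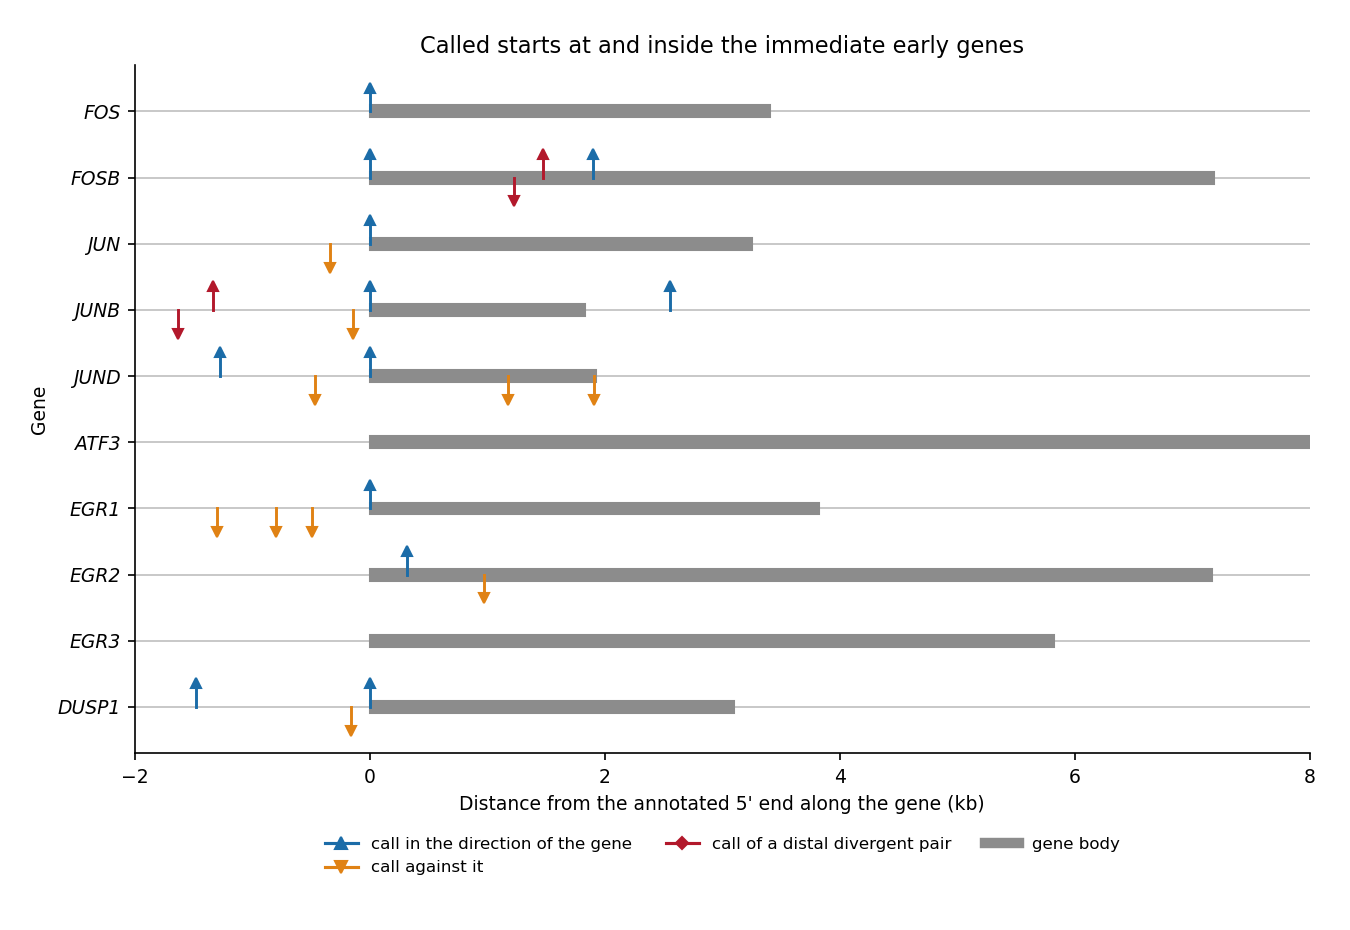
Calls from 2 kb before to 8 kb after the annotated 5' end of each gene, in kb along the gene. Grey bars are gene bodies, upward marks calls in the direction of the gene and downward marks calls against it, with the calls of distal divergent pairs in red. EGR3, whose strand is not in the promoter table, is drawn from its upper end, and it and ATF3 (shown to 8 kb) have no call in this range.

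Opposite-strand calls upstream of the start lay within 300 bp at 2 members and between 300 and 500 bp at 3. JUNB had one 142 bp upstream and DUSP1 one 164 bp upstream, so that 2 of 8 members with a start (25%, 7.15 to 59.1) had a divergent partner, beside 50.7% of protein-coding genes with a start. JUN, JUND and EGR1 had one at 340, 469 and 496 bp. A nearest opposite call more than 300 and up to 500 bp away was thus found in 3 of 8 (37.5%, 13.7 to 69.4) members and in 11.4% of protein-coding genes with a start. FOS, FOSB and EGR2 had none within 1000 bp, a distance within which 65.2% of genes had one. Counting to 500 bp, 5 of 8 members (62.5%) and 62.1% of genes had one, so that the share was close to the background at this limit. The median distance of these calls was 340 bp in the 5 members and 174 bp in 5097 genes (quartiles 120 and 265). The limit of 500 bp was chosen in the alternatives, and the band beyond 300 bp after the values were seen.

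Noncoding genes are annotated on the upstream side of 3 of these starts. The forward call upstream of JUND, at 18282092, lay on the lower end of LOC124904652 and 15 bp inside the lower end of the microRNA gene MIR3188. The strand of LOC124904652 was not available, so that this end may be its start or its last base. The opposite call of JUN, at 58784384, lay 767 bp before JUN-DT, the divergent transcript of JUN. That of DUSP1, at 172771359, lay 852 bp before LOC105377730. The reverse call upstream of JUNB, at 12791344, lay 1006 bp inside the outer end of HOOK2, a gene for a microtubule linker protein that runs along the reverse strand and overlaps JUNB, so that a start of HOOK2 and an upstream antisense start of JUNB cannot be told apart there.

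**Figure D4:**
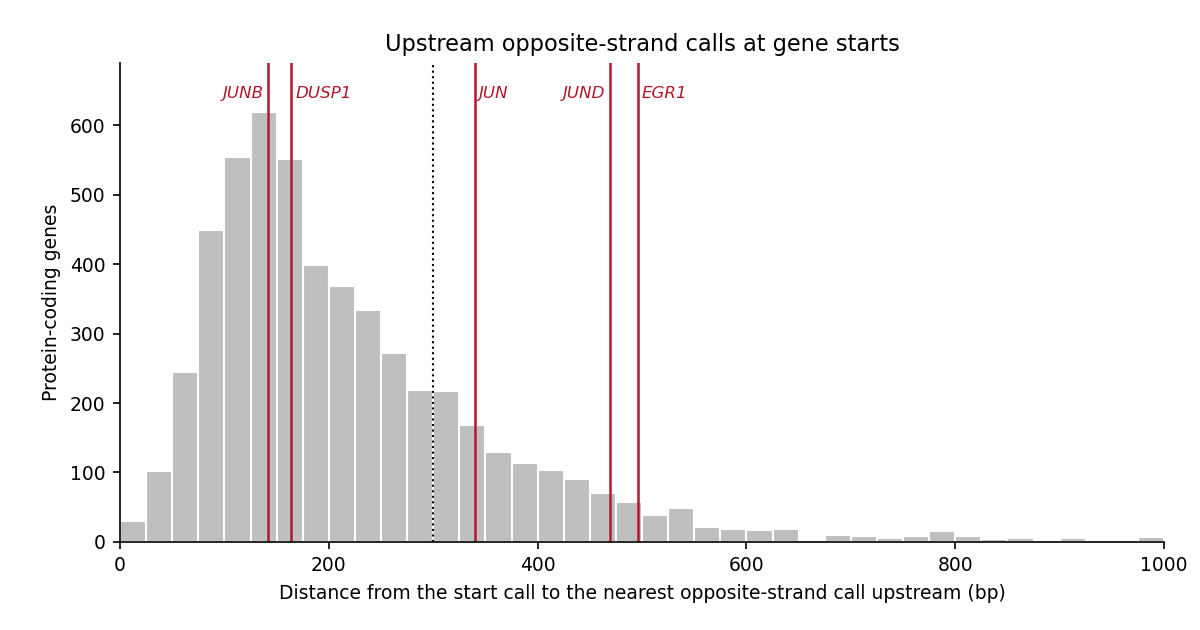
Distance in bp from the start call to the nearest opposite-strand call upstream, as counts of protein-coding genes in bins of 25 bp, up to 1000 bp. Red lines mark the members and the dotted line the 300 bp limit. JUNB and DUSP1 lie below it at 142 and 164 bp, and JUN, JUND and EGR1 above it at 340, 469 and 496 bp.

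EGR1 had 3 upstream antisense calls within 1303 bp. Beside the one 496 bp before its start call, at 138464984, reverse calls lay 801 and 1303 bp before the annotated start, at 138464678 and 138464176. No other call lay in its window. Calls of 1 strand were at least 251 bp apart in the whole data set.

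Calls inside the gene other than the start were found in FOSB, JUND, EGR2 and ATF3. Counting starts too, 8 of 10 members held a call inside the gene body, beside 43.3% of protein-coding genes, and FOS, with its start 1 base outside, and EGR3 did not. FOSB, which like FOS encodes a partner of JUN proteins, held 3, a divergent pair with the reverse call 1225 and the forward call 1474 bp into the gene (45469221 and 45469470) and a further forward call at 1898 bp (45469894). JUND held 2 forward calls that ran against it, at 18280442, 1180 bp into the gene, and at 18279713, 19 bp inside its 3' end. The latter pointed into the gene and made JUND the only member with 2 inward calls at its ends, while 7 of the 8 had a single one, beside 84.6% of protein-coding genes with a start. An antisense call inside the gene was present in FOSB, JUND and EGR2, 3 of the 8 members with a start (37.5%), beside 35.8% of 6884 such genes with a strand in the table, a share near the background. The members are short, with a median length of 3610 bp beside 24500 bp over protein-coding genes, and only ATF3, at 55371 bp, was longer than that median.

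The surroundings differed widely between members. The 3 members on chromosome 19, FOSB, JUND and JUNB, had 19, 17 and 13 calls in their windows, 49 of the 73. The 7 others had 24, namely 5 at EGR2, 4 each at EGR1 and DUSP1, 3 each at FOS, JUN and ATF3 and 2 at EGR3. The median was 4 over the members and 3 over all protein-coding genes (quartiles 0 and 6). FOSB had more calls than 98.7%, JUND than 97.9% and JUNB than 94.9% of protein-coding genes, while FOS, JUN and ATF3 had more than 47.1%. Windows differ in the number of genes they hold, and the part of gene density in these counts was not tested.

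Distal divergent pairs, an arrangement found at active enhancers, were counted where both calls were more than 1000 bp from every outer gene end and at most 300 bp apart. They lay near 3 of the 10 members (30.0%, 10.8 to 60.3), beside 9.83% of protein-coding genes. JUNB, an AP-1 subunit that is known to act in erythroid differentiation, had 2, both inside HOOK2, at 12789852 and 12790150, 1.34 kb upstream of JUNB, and at 12788644 and 12788809, 2.68 kb upstream. The spacings were 298 and 165 bp. FOSB had the pair inside its own gene and one 44.0 kb upstream in the DNA repair gene ERCC1 (45423918 and 45423994). The reverse call of that ERCC1 pair lay 1 base from a RefSeq start of ERCC1, so that it is also a start of a shorter ERCC1 transcript by annotation. The fifth pair was the one inside ATF3, where a promoter inside the gene and a distal pair cannot be told apart from these calls. When the limit to gene ends was raised to 2000 bp, both JUNB pairs and the pair inside FOSB were lost, which left FOSB and ATF3, 2 of 10, beside 7.15% of protein-coding genes. With the ends of protein-coding genes only, JUND gained a pair 101 bp apart (18293467 and 18293568), which made 4 of 10, beside 12.8%. With spacings of at most 150 bp, 1 of 10 was left, FOSB with its ERCC1 pair, beside 5.6%.

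FOS had a pair of the same arrangement that was too wide for this limit. The reverse call at 75258999 and the forward call at 75259373 lay 374 bp apart and 19.5 to 19.8 kb upstream of FOS, outside any annotated gene. With pairs of up to 500 bp FOS became the fourth member with a distal pair, 4 of 10, beside 11.1% of protein-coding genes at this limit. These 2 calls and the start were the only calls in the FOS window, and the pair was 11302 bp from the nearest annotated gene end. JUN had a single further call, a forward one at 58816538 inside JUN-DT, 32.5 kb upstream. DUSP1 had 2, a reverse call 1482 bp upstream, at 172772677, and a forward one 31650 bp upstream, at 172802845.

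Called starts of neighbouring genes accounted for part of the calls around the chromosome 19 members. The window of FOSB held starts of PPM1N, a phosphatase gene (224 bp inside its end), of VASP, which encodes an actin regulator (8 bp inside), and of the noncoding gene LOC107985314 (3 bp inside). The window of JUNB held those of the antioxidant enzyme gene PRDX2, on its annotated end at 12801800, and of RNASEH2A, a subunit gene of ribonuclease H2 (23 bp inside). A reverse call at 12775552 fell on an internal RefSeq start of HOOK2. That of JUND held the start of LSM4, which encodes an RNA-binding protein of splicing and decay complexes, on its annotated end at 18323076, 2 calls at an end of LOC124904653 and 1 at LOC124904654. The window of EGR2 held the start of ADO, a thiol dioxygenase gene, 136 bp inside its end.

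**Figure D5:**
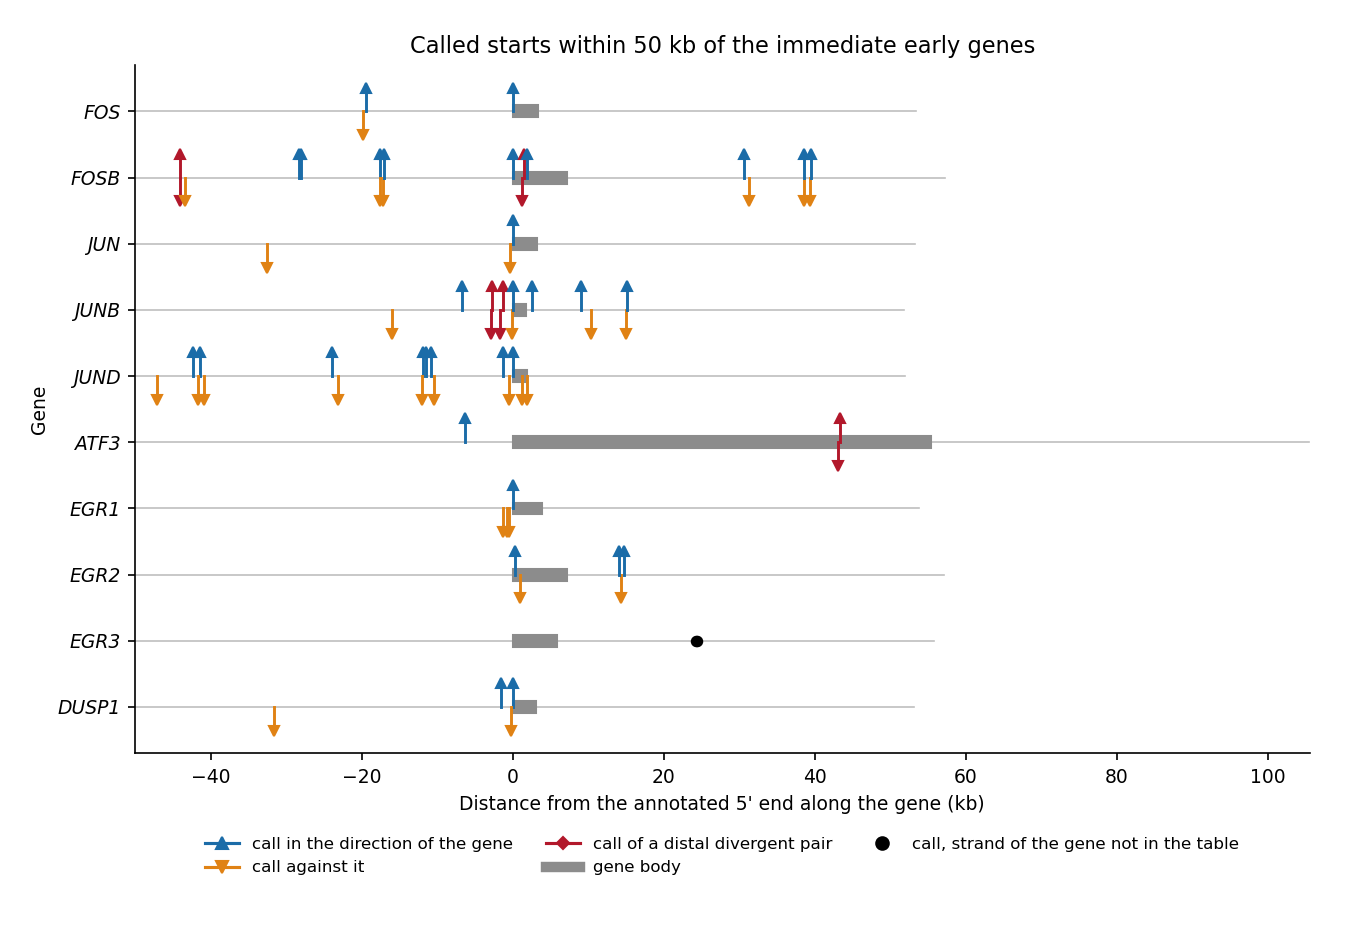
Calls in the gene and 50 kb on each side, in kb along each gene from its annotated 5' end, marked as calls in the direction of the gene (up), against it (down) or of a distal divergent pair (red). Grey lines span the windows. FOSB, JUND and JUNB hold 19, 17 and 13 calls and the other 7 members 2 to 5 each.

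Other immediate early genes were often called as well. Of a list of 40, 28 had a called start (70.0%, 54.6 to 81.9), beside 41.4% of protein-coding genes. Among those called were BHLHE40, a helix-loop-helix repressor, the antiproliferative genes BTG1 and BTG2, and CCN1, a secreted matrix protein gene, with calls 177, 3, 1 and 1 bp outside their ends. ARC, a neuronal activity gene, CCN2, the nuclear protein gene CSRNP1 and the phosphatase gene DUSP4 were among the 12 not called, of which 5, CSRNP1 among them, held a call inside the gene. Over all protein-coding genes, with or without a called start, 43.3% held a call inside the gene. Of the 28 starts 23 were within 10 bp of the gene end, beside 45.9% of protein-coding genes with a start. In the 24 promoter windows of this list with a call and 40 bases upstream of it, TATAAA lay 40 to 16 bases upstream in 3 (12.5%), those of BTG1, GADD45B and PPP1R15A, and TGACGT was found in 6 (25%). The matching shares over all genes in the promoter table were 1.5% of calls and 13.6% of windows with a call.

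The regulators that induce the members were also often called. Of 24 genes for serum response and CREB factors, MAP kinases and their kinases, 18 had a called start (75%, 55.1 to 88.0). The share over all protein-coding genes was 41.4%. Among the 18 were CREB1, CREM, CRTC1 and CRTC2, which encode CREB-type factors and their coactivators. ATF1, ELK1, ELK3 and MAPK3 were among the 6 without one, although ATF1 held 3 calls inside the gene. SRF, which encodes serum response factor itself, was called on its annotated end, and its window held a CArG box. None of the 17 windows of this list held TATAAA 40 to 16 bases upstream of the call, and TGACGT was found in 5 (29.4%). The absence of TATAAA is near the share over the promoter table, 1.5% of calls. For TGACGT that share was 13.6% of windows with a call.

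Of 23 other partners of the FOS and JUN proteins and corepressors of EGR proteins, 12 had a called start (52.2%, 33.0 to 70.8). The share over all protein-coding genes was 41.4%. The interval holds this value but is too wide to show that the 2 shares are alike, and the difference was not tested. ATF2 and ATF4, bZIP factors of the stress response, BACH1, a haem-sensing repressor, and CEBPB were among those called, with ATF2 on its annotated end, BACH1 3 bp inside, ATF4 5 bp inside and CEBPB 247 bp inside. Of this list, 9 promoter windows held a call on the strand of the gene with 40 bases upstream of it. These windows need not belong to genes with a called start, and that of MAFG did not. TATAAA lay 40 to 16 bases upstream in 2 of the 9 (22.2%), those of ATF4 and CEBPB, and TGACGT was found in 3 (33.3%). The 5 such windows of the erythroid markers held TATAAA there in 1 (20%), that of TFRC, the transferrin receptor gene, and TGACGT in none. ATF7, BACH2, BATF and BATF2 were among the 11 without a called start, and none of these 4 held a call inside the gene. SRF, FOSL1, FOSL2 and MAFF stand in 2 of these 3 lists, so that the counts are not independent.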

How the data were processed

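PRO-cap start calls of wild-type HUDEP-2 cells were analysed from 1 list for each strand. Alignment to hg38 and read handling involved BWA 0.7.16a, SAMtools 1.17, Picard and deepTools 3.5.4, per the submitters' processing notes. How calls were thresholded and replicates handled is not known from the sources used here. The position columns that the authors deposited hold other values than measurements, 1-base coordinates used here 1-based, and the score that the authors deposited was 0 in all rows. Depth per call is unknown.

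The 26332 calls on chromosomes 1 to 22 and X were used, without 63 others. Genes came from a RefSeq table (GRCh38.p14, 58419 genes, after 679 entries on other scaffolds were removed), and strands and promoter windows from a RefSeq sequence table, which held 9 of the 10 members. The promoter table gave multiple starts for some genes. Python 3.11.15, pandas 2.3.3 and numpy 2.4.6 were used. The steps recovered all planted starts, partners and pairs in simulated data. These were planted within the limits searched, so that this checks the code only and says nothing about missed or false calls. The members and lists were chosen with earlier results of these data known, so that counts are descriptions without tests. For the 3 further lists the first 4 genes by alphabet with and without a start were named. SRF, APOA1, TAL1, GADD45B and PPP1R15A, and the marker genes named as examples, were named after their values were seen. Alternatives were other windows, reaches, pair distances and gene ends.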

Additional observations from a re-analysis of the deposited data

How the results depend on the processing

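The counts rest on yes or no calls at an unknown threshold, so that depth limits what a missing call at the outer ends of ATF3 or at EGR3 can show. Of 26 alternatives over 8 results, 20 stayed within 1.5 times the reported value and 6 did not. The 2 members with a divergent partner became 1 at 150 bp and 5 at both 500 and 1000 bp. With the forward call inside ATF3 counted as its start there were 3, an alternative chosen after seeing the data that stayed within 1.5 times. The 3 members with a distal pair nearby became 1 with pairs of up to 150 bp, which left FOSB, beside 5.6% of protein-coding genes. A limit of 2000 bp from gene ends left 2, FOSB and ATF3, without JUNB. At both settings the FOSB pair left was the one in ERCC1, whose reverse call lay 1 base from a RefSeq start of ERCC1. With the starts of the promoter table added to the gene ends, that pair was lost. The count stayed at 3, FOSB with the pair inside its gene, JUNB and ATF3. This alternative was not planned beforehand. The 73 calls in the windows became 122 with a reach of 100 kb and, as an alternative chosen after seeing the data, 30 with 5 kb. No paired analysis was possible because the deposited calls name no replicate, and no replicate could be left out for the same reason.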

Other observations

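The band from beyond 300 to 500 bp for the nearest upstream opposite call, which held JUN, JUND and EGR1, was also counted in the further lists, after the values of the members were seen. Among the FOS and JUN partners and EGR corepressors with a start, 4 of 12 lay in the band and 2 of 12 within 300 bp, with ATF2 at 349 bp, FOSL2 at 360 bp, DDIT3 at 434 bp and NFE2L1 at 309 bp in the band. Among the wider immediate early genes 3 of 28 lay in the band and 13 of 28 within 300 bp, and among the inducing regulators 2 of 18 and 11 of 18. The shares over all protein-coding genes with a start were 11.4% and 50.7%. A distal pair lay near 7 of the 40 wider immediate early genes, among them IER2 with 2 pairs and FOSL2 with 1, near 4 of the 24 regulators and near 3 of the 23 partners, beside 9.83% of protein-coding genes.

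IER2, an immediate early gene on chromosome 19, held 10 calls inside the gene, 5 of them antisense, and 18 calls in its window, close to the 19 of FOSB and 17 of JUND. It was singled out after its values were seen.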
